A study of Mus musculus with 29 samples.

Results

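Expression of 7 genes of neuronal migration was followed through neural differentiation of mouse embryonic stem cells: the secreted ligand Reln, its receptors Vldlr and Lrp8, their adaptor Dab1, the chemokine Cxcl12, and the Cxcl12 receptors Cxcr4 and Ackr3. They were taken by symbol from 30702 genes with a transcript cluster of their own on the array, and each was read by 1 cluster. Reln and Cxcr4 were chosen by measured values of these arrays, which were lower in NPC and mDPC labelled BERKO than in wild type, so those differences are described here without a test. The other 5 genes were included for their place in the same pathways.

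Reelin is a large extracellular glycoprotein that binds the lipoprotein receptors Vldlr and Lrp8 (ApoER2) and triggers tyrosine phosphorylation of Dab1, which guides the placement of migrating neurons in cortex, cerebellum and midbrain. Midbrain dopaminergic neurons also depend on Reelin signalling for their position. Cxcl12 attracts cells through the G protein coupled receptor Cxcr4, while Ackr3 (formerly Cxcr7) binds and internalises Cxcl12 and signals mainly through arrestins. In the brain Cxcl12 is made by the meninges, and Cxcr4 is carried by migrating precursors and neurons.

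RNA from wild-type (WT) cells and from cells labelled BERKO, a knockout of estrogen receptor beta (gene Esr2), was hybridised to Clariom D arrays, 1 array per sample, 29 in all. Cells were sampled at the stem cell stage in LIF medium (mESC), as precursors expanded on laminin with FGFb (NPC), as midbrain precursors given FGFb, FGF8b and Shh (mDPC) and after maturation toward midbrain neurons (MN). At mESC each genotype had 2 untreated arrays. At NPC and mDPC each genotype had 2 arrays with vehicle (DMSO, called untreated here) and 2 with 0.5 nM LY3201, an agonist selective for estrogen receptor beta, given for 4 days. At MN the WT had 2 arrays per treatment, while BERKO had 3 without and 2 with LY3201, and the length of treatment there is not stated. All cultures were free of feeder cells. The strain, the sex and the number of clones per genotype were not given in the sources used here.

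All values are on a log2 scale, where a difference of 1 is a doubling. The 95th percentile of the array's negative-control probes lay between 6.63 and 7.66, and their median between 3.75 and 4.24, so values below about 7 were not clear of the brightest negative controls. Replicate arrays correlated at 0.9944 to 0.9985 across clusters, which are not independent replicates. Esr2, the targeted gene, went against the label: it read 3.21 to 3.47 in the 14 arrays labelled WT and 3.80 to 4.46 in the 15 labelled BERKO, near the negative-control medians in both. The deleted part of the gene is not in the labels, so its cluster does not settle the genotype, and every direction given for BERKO rests on the label. Stage markers moved with the stage labels, with Nanog at 16.28 and 16.58 in the mESC groups and 5.21 or less later, and Gfap, an astrocyte filament gene, at 18.81 to 18.97 in the MN groups. None of 5 dopaminergic markers (Th, Nr4a2, Foxa2, Lmx1a, Slc6a3) exceeded the negative-control 95th percentile in any group mean, so MN names a stage and not a measured content of dopaminergic neurons. The neuron markers averaged 7.28 and 9.66 in the 2 untreated MN arrays labelled WT and 6.57 to 6.83 in the 3 labelled BERKO, and in bulk RNA fewer cells of a type and less RNA per cell cannot be told apart.

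The 2 genes whose lower values in BERKO precursors led to this set have promoters of different make. The 250 bases before each RefSeq start site (build GRCm38.p6) are shown with capitals marking the GC box GGGCGG on either strand, the binding motif of Sp family factors.
Reln, chr5:22344706-22344955, minus strand: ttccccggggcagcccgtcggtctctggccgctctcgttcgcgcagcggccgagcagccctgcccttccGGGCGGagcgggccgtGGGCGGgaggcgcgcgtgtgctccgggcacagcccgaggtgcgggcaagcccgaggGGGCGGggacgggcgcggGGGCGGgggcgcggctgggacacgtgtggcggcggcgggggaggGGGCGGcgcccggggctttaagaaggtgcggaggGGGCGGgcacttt
Cxcr4, chr1:128592300-128592549, minus strand: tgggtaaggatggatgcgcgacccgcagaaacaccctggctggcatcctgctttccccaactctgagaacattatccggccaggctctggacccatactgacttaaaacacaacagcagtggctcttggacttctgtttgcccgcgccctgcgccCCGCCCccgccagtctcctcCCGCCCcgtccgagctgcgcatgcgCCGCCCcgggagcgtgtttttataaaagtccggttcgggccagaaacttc
The Reln window is 80.0% G and C, with 37 CpG dinucleotides and 6 GC boxes. The Cxcr4 window is 61.2% G and C, with 19 CpG dinucleotides and 3 GC boxes, all written on the opposite strand. The median over 32851 promoter windows of the same length was 6 CpG dinucleotides, and 32.7% of the windows held a GC box. The TATA box TATAAA, searched on both strands, had 2 overlapping matches in Cxcr4, beginning 32 and 30 bases before the start, and 0 in Reln, against 12.4% of all windows. The full palindromic estrogen response element (0.0639% of windows) and its half-site GGTCA (35.2% of windows, and contained in the full element) had 0 matches in either window on both strands. These are matches of letters within short windows, and no binding was measured.

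Reln reached its highest values at the mDPC stage in WT, and stood far lower there in cells labelled BERKO. It read 4.12 to 4.24 in all 4 mESC arrays, at the level of the negative-control median. In untreated NPC it read 6.18 and 5.92 in WT and 5.11 and 5.31 in BERKO, all below the 95th percentile of the negative controls. In untreated mDPC it read 11.96 and 11.57 in WT and 7.50 and 8.05 in BERKO. At MN it came to 6.85 and 6.56 in WT and 6.35, 6.02 and 6.02 in BERKO, again all below the 95th percentile of the negative controls. Groups of the 2 genotypes were separate at each of these 3 stages, with the widest gap at mDPC. They were also separate in mESC, at background level. Groups of so few arrays often separate by chance, and no share over all genes is given here, so separation alone shows little.

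As a description, since these values chose the gene, the untreated difference of Reln (BERKO minus WT) was -0.84 ± 0.24 (SE, n = 2 per group) in NPC and -3.99 ± 0.24 in mDPC, the latter a 15.9-fold lower level. Leaving out either mDPC array labelled BERKO moved the mDPC difference to -3.71 or -4.27. The LY3201 precursor arrays come from the same 2 genotypes and may have been in view when the gene was chosen, so they are described in the same way. In these, Reln read 11.42 and 12.13 in WT mDPC and 8.84 and 8.05 in BERKO mDPC, a difference of -3.33 ± 0.24. With LY3201 in NPC it read 6.44 and 6.16 in WT and 5.20 and 5.27 in BERKO, a difference of -1.07 ± 0.24.

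At MN every array read Reln below its negative-control 95th percentile, where signals can understate a difference, and the difference was smaller. Untreated it was -0.58 ± 0.22 (n = 2 and 3, limma adjusted p = 0.0761), and with LY3201 -0.26 ± 0.24 (adjusted p = 0.519), so neither passed the threshold of 0.05. In mESC the difference was -0.07, with a 95% interval of -0.58 to 0.45 at background level. The order of the 14 groups by Reln ran from the WT mDPC groups at 11.78 and 11.77 through the BERKO mDPC groups at 8.45 and 7.78, the MN and NPC groups between 6.71 and 5.21, to the mESC groups. Within that order the LY3201 and untreated groups of the same stage and genotype overlapped at WT mDPC, WT MN and both NPC genotypes, and for BERKO mDPC they touched at 8.05.

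Cajal-Retzius cells are the best known source of Reelin in the embryonic cortex, and inhibitory neurons a source in the adult. The 7 Cajal-Retzius markers averaged 4.49 to 4.60 in untreated WT mDPC arrays and 4.45 to 4.49 in untreated BERKO mDPC arrays, and with LY3201 4.54 in both WT arrays and 4.59 in both BERKO arrays. Trp73, Calb2, Lhx1, Lhx5 and Nhlh2 lay near the negative-control median there, with Trp73 at 3.69 and 3.67 and Calb2 at 3.44 and 3.56 in the WT and BERKO group means. Of the 2 listed markers above that level, Ebf3 was lower in BERKO mDPC (6.87 against 7.98) and Ebf2 higher (6.70 against 6.10). The inhibitory neuron markers averaged 3.51 to 4.28 over all 29 arrays, and no group mean of any of them exceeded the 95th percentile of the negative controls. Oligodendrocyte-lineage markers moved the other way from Reln between genotypes: 5 of 6 were higher in untreated BERKO mDPC, against 8.39% of all genes tested, and the list averaged 9.65 to 9.78 against 8.53 to 8.63 in WT. Of the 5 astrocyte markers 2 were higher and 1 lower there, against 8.39% and 5.26% of all genes, with S100b at 12.07 against 9.88, Aldh1l1 at 7.91 against 6.37 and Gfap at 13.30 against 16.53. The part of cell makeup in the Reln difference was not tested.

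**Figure D1:**
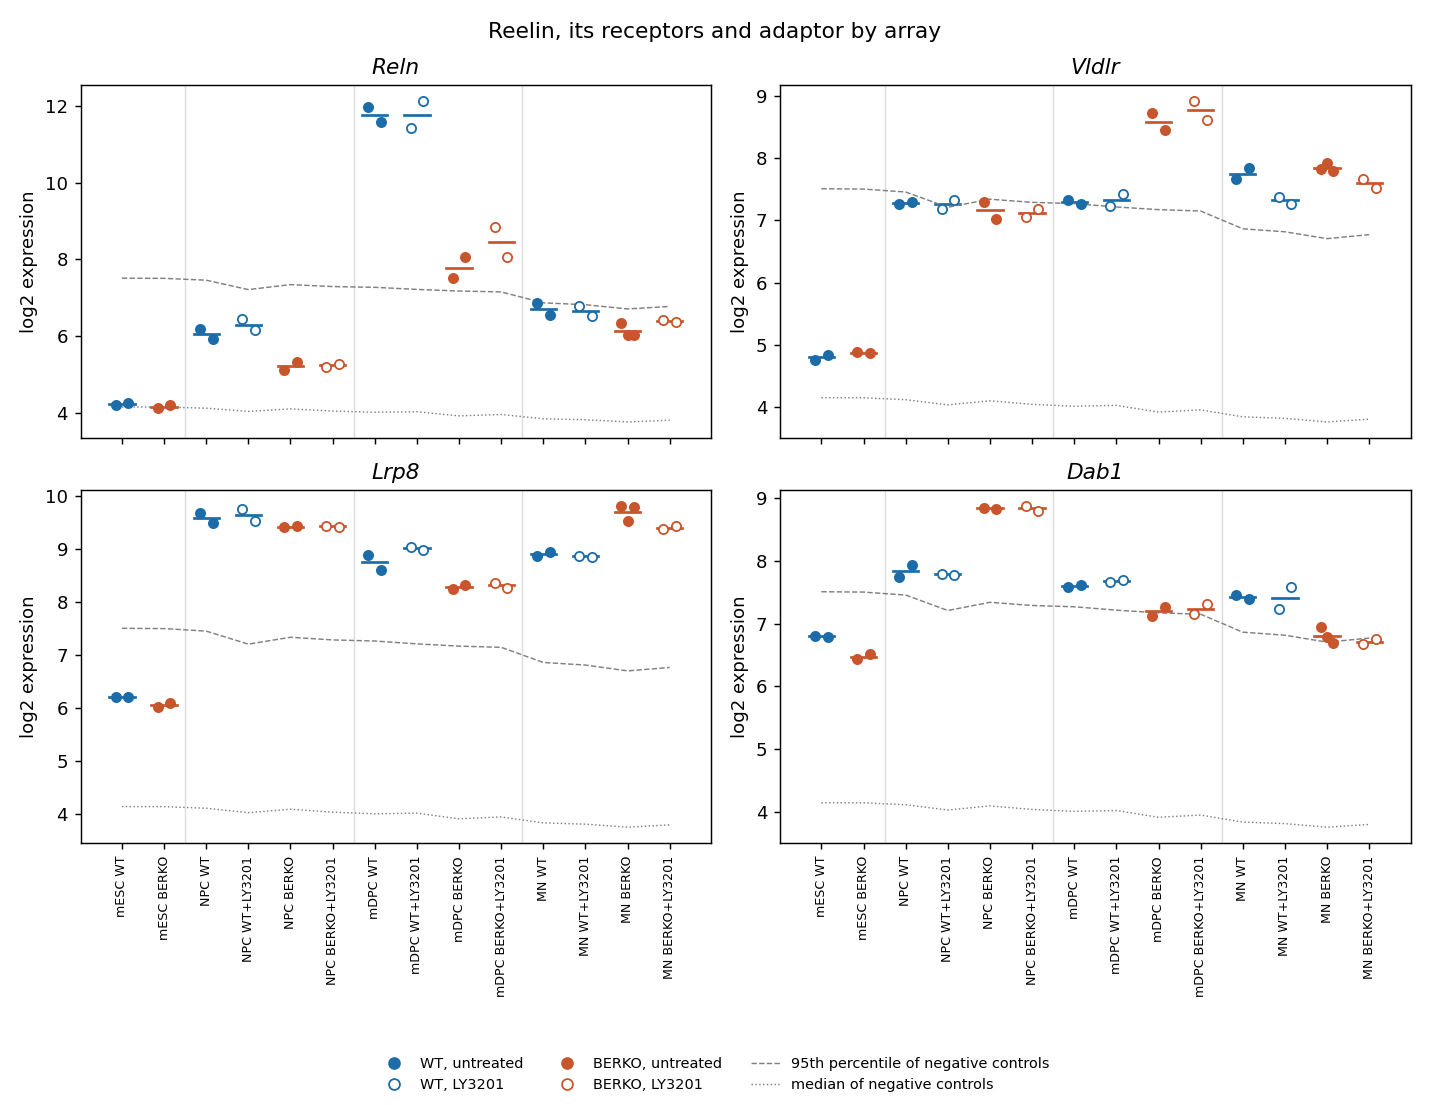
Log2 expression of Reln, Vldlr, Lrp8 and Dab1 in each of 29 arrays (points) by group, WT blue and BERKO orange, with group means as bars, filled points untreated and open points LY3201. Dashed and dotted grey lines are the mean 95th percentile and median of the negative controls in each group. Reln stands at 11.42 to 12.13 in the 4 WT mDPC arrays and at 7.50 to 8.84 in the 4 labelled BERKO, while Vldlr is higher in the latter.

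Vldlr, the Reelin receptor that also binds lipoproteins rich in triglycerides, was higher in BERKO at mDPC, the stage where Reln was lower. It read 7.33 and 7.26 in untreated WT mDPC against 8.73 and 8.45 in BERKO, with no overlap. The difference was 1.30 ± 0.12 (2.45-fold, limma adjusted p = 1.7e-07). With LY3201 it read 7.23 and 7.42 in WT and 8.92 and 8.62 in BERKO, a difference of 1.44 ± 0.12 (adjusted p = 3.33e-08). In NPC the untreated arrays read 7.26 and 7.29 in WT and 7.30 and 7.03 in BERKO, which overlap, and the 95% interval of the difference was -0.36 to 0.13. At MN they read 7.66 and 7.84 in WT and 7.82, 7.93 and 7.79 in BERKO, again overlapping. With LY3201 at MN the groups were separate, with means of 7.33 in WT and 7.60 in BERKO. That difference, 0.27 ± 0.12, did not pass (limma adjusted p = 0.124). The 4 mDPC arrays labelled BERKO were the 4 highest of all 29 for Vldlr.

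Lrp8, the other Reelin receptor, which occurs mainly in neurons, changed direction between stages. Untreated mDPC read 8.90 and 8.61 in WT and 8.25 and 8.33 in BERKO, a difference of -0.46 ± 0.11 (limma adjusted p = 0.00475). Untreated MN read 8.87 and 8.94 in WT and 9.81, 9.53 and 9.79 in BERKO, a difference of 0.80 ± 0.10 (adjusted p = 3.91e-06). With LY3201 the differences were -0.70 ± 0.11 at mDPC and 0.54 ± 0.11 at MN (adjusted p = 7.75e-05 and 0.00111). Lrp8 was thus lower at mDPC and higher at MN in arrays labelled BERKO under both treatments. The untreated mDPC call was lost without the first WT array (adjusted p = 0.108) or the first BERKO array (0.059), and when only the compared groups were fitted (0.0833). In such fits the MN calls passed, with adjusted p = 0.0127 untreated and 0.0478 with LY3201. In NPC Lrp8 read 9.69 and 9.49 in WT and 9.42 and 9.43 in BERKO, with a 95% interval of the difference of -0.38 to 0.06.

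Dab1, the intracellular adaptor phosphorylated when Reelin binds, was higher in BERKO at NPC and lower at the later stages. It read 7.75 and 7.94 in untreated WT NPC against 8.85 and 8.82 in BERKO, a difference of 0.99 ± 0.10 (1.98-fold, limma adjusted p = 1.61e-06). The LY3201 arrays of NPC gave 1.05 ± 0.10 (adjusted p = 7.28e-07). At MN Dab1 read 7.46 and 7.39 in untreated WT and 6.94, 6.79 and 6.69 in BERKO, a difference of -0.62 ± 0.09 (adjusted p = 6.87e-05), and with LY3201 -0.70 ± 0.10 (6.4e-05). At mDPC the differences were smaller, -0.41 ± 0.10 untreated and -0.45 ± 0.10 with LY3201 (adjusted p = 0.0111 and 0.00499). The untreated mDPC call was lost without the second WT array (0.0808), without the first BERKO array (0.136) and when only the compared groups were fitted (0.0666). The LY3201 mDPC call was lost without the first BERKO array with LY3201 (0.0766) and when only the compared groups were fitted (0.076), and in such a fit the LY3201 MN call was lost as well (0.074). In mESC Dab1 read 6.81 and 6.79 in WT and 6.43 and 6.51 in BERKO, below the 95th percentile of the negative controls, and the difference of -0.33 ± 0.10 did not pass (adjusted p = 0.0825).

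Cxcr4 rose on leaving the stem cell state in both genotypes and remained lower in arrays labelled BERKO at all 3 later stages. It read 4.14 and 3.85 in WT mESC and 4.33 and 4.40 in BERKO mESC, near background. In untreated NPC it read 10.58 and 10.39 in WT and 7.63 and 8.22 in BERKO. In untreated mDPC it read 11.50 and 11.47 in WT and 8.17 and 7.99 in BERKO. At untreated MN it read 11.68 and 11.50 in WT and 10.56, 9.97 and 10.39 in BERKO. The genotype groups were separate at each stage, with BERKO above WT in mESC, near background, and below WT at the later stages. Groups of so few arrays often separate by chance, and no share of separate groups over all genes is given here. As a description, the gap at MN was 2.12 ± 0.23 smaller than at mDPC.

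The untreated precursor differences of Cxcr4 chose the gene and are given without a test: -2.56 ± 0.17 in NPC and -3.40 ± 0.17 (10.6-fold lower) in mDPC. The NPC value became -2.27 or -2.85 without the first or the second BERKO array. The rule did not use the MN stage, where the untreated difference was -1.28 ± 0.16 (2.44-fold lower, n = 2 and 3, limma adjusted p = 4.43e-06). With LY3201 at MN, Cxcr4 read 11.11 and 11.18 in WT and 10.14 and 10.07 in BERKO, a difference of -1.04 ± 0.17 (adjusted p = 0.000197). In LY3201 precursors, again as a description, the differences were -2.38 ± 0.17 in NPC and -3.67 ± 0.17 in mDPC. In mESC the difference of 0.37 ± 0.17 did not pass (adjusted p = 0.27). Beside the MN difference, 5 of 5 neuron markers were lower in untreated BERKO MN and 1 of 5 with LY3201, against 7.26% and 10.5% of all genes. Of 5 astrocyte markers 4 were higher untreated and 3 with LY3201, against 13.3% and 8.93% of all genes. Their part in the Cxcr4 difference was not tested.

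**Figure D2:**
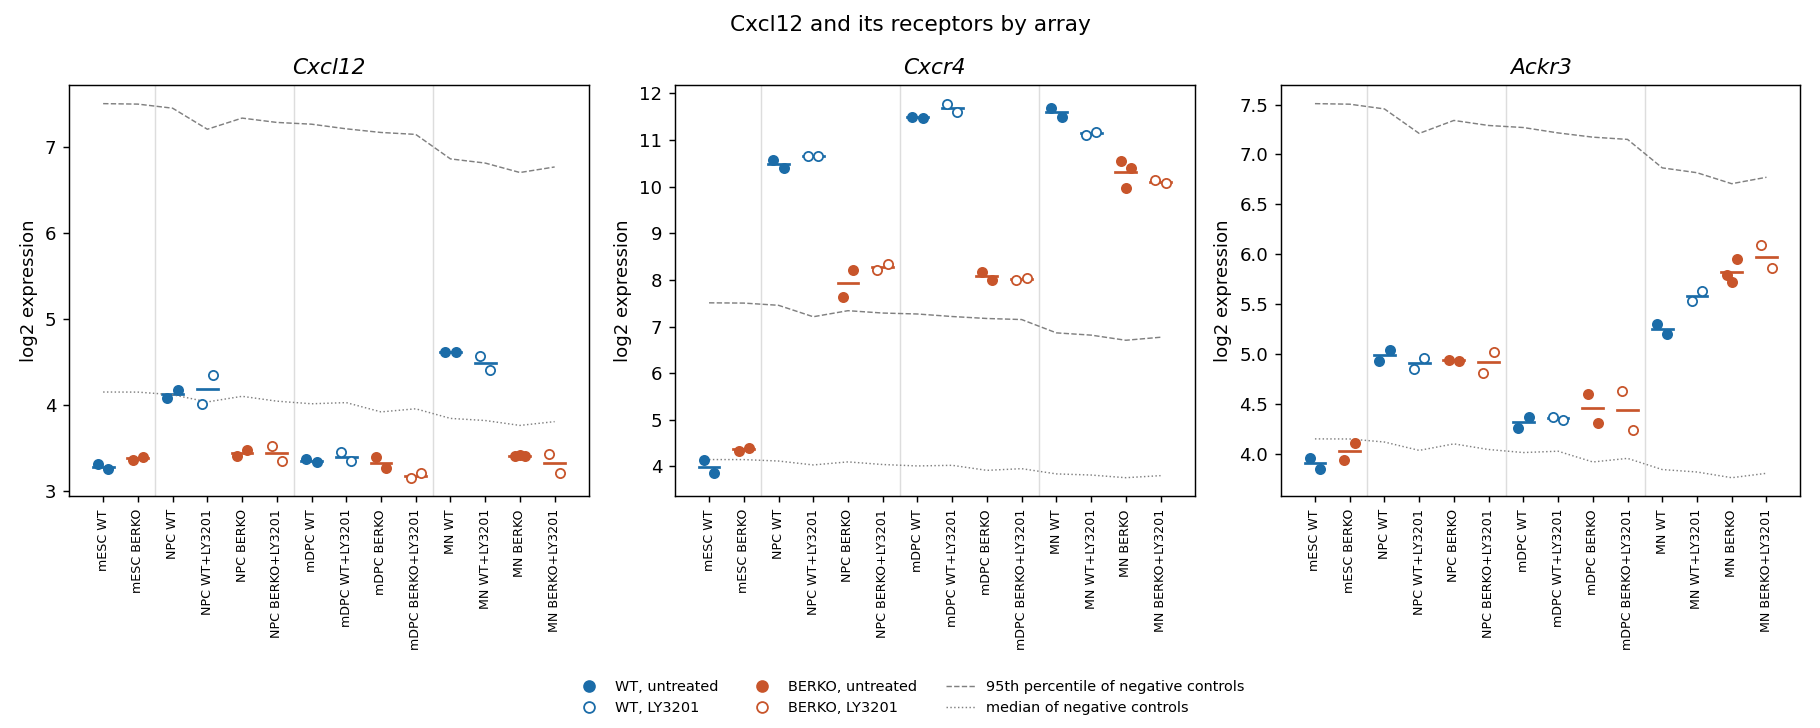
Log2 expression of Cxcl12, Cxcr4 and Ackr3 in each of 29 arrays (points) by group, WT blue and BERKO orange, with group means as bars and the negative-control 95th percentile (dashed) and median (dotted) in grey. Cxcr4 reads 10.39 to 11.78 in WT NPC and mDPC arrays and 7.63 to 8.35 in those labelled BERKO, while Cxcl12 and Ackr3 stay below the dashed line in every array.

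Cxcl12 itself was near background in most arrays and higher only in WT NPC and WT MN. Its highest value was 4.61, no array exceeded its negative-control 95th percentile, and 23 of 29 arrays lay at or below their negative-control median. It passed the filter on low values through the WT NPC and WT MN arrays alone, so a lower value in BERKO at those stages was built into its being tested, and its differences are given without a p. Untreated NPC read 4.08 and 4.17 in WT and 3.40 and 3.47 in BERKO, a difference of -0.68 ± 0.10. Untreated MN read 4.61 and 4.61 in WT and 3.40, 3.41 and 3.40 in BERKO, a difference of -1.21 ± 0.09. With LY3201 the differences were -0.75 ± 0.10 and -1.16 ± 0.10 at these stages. In mDPC all 8 arrays read 3.15 to 3.45, and the untreated interval was -0.23 to 0.19. Values this close to background understate any fold difference.

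Mesenchymal and meningeal markers, the genes of cells that make Cxcl12 around the brain, were lower in BERKO at the same stages. From NPC to MN in untreated WT the 2 went opposite ways. Cxcl12 averaged 4.12 and then 4.61, and the marker mean was 6.74 and then 5.93. Of 8 such markers on the array and 7 tested, 5 were lower in untreated BERKO NPC (median difference of the 7, -1.89), against 5.07% of all genes. At untreated MN 6 were lower (median -1.52), against 7.26% of all genes, and the median at untreated mDPC was -0.13. Their mean over the 8 markers was 6.72 to 6.77 in untreated WT NPC arrays and 4.85 to 4.98 in BERKO, and 5.87 to 5.99 in untreated WT MN and 4.05 to 4.11 in BERKO. Dcn, a matrix proteoglycan of fibroblasts, had a group mean of 10.93 in untreated WT NPC against 6.06 in BERKO. Pdgfrb, a receptor of pericytes and mesenchymal cells, read 6.93 in WT NPC and 5.59 in WT MN, against 5.04 and 4.17 in BERKO. Col1a1, the collagen I chain, read 6.23 and 7.04 against 4.76 and 4.54. Foxc2 and Twist1 stayed at 3.04 to 4.92 in all group means. The part of such cells in the Cxcl12 difference was not tested. Of the endothelial and microglial markers 2 of 5 and 1 of 4 passed the filter, and their median genotype differences after the mESC stage lay between -0.07 and 0.10.

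**Figure D3:**
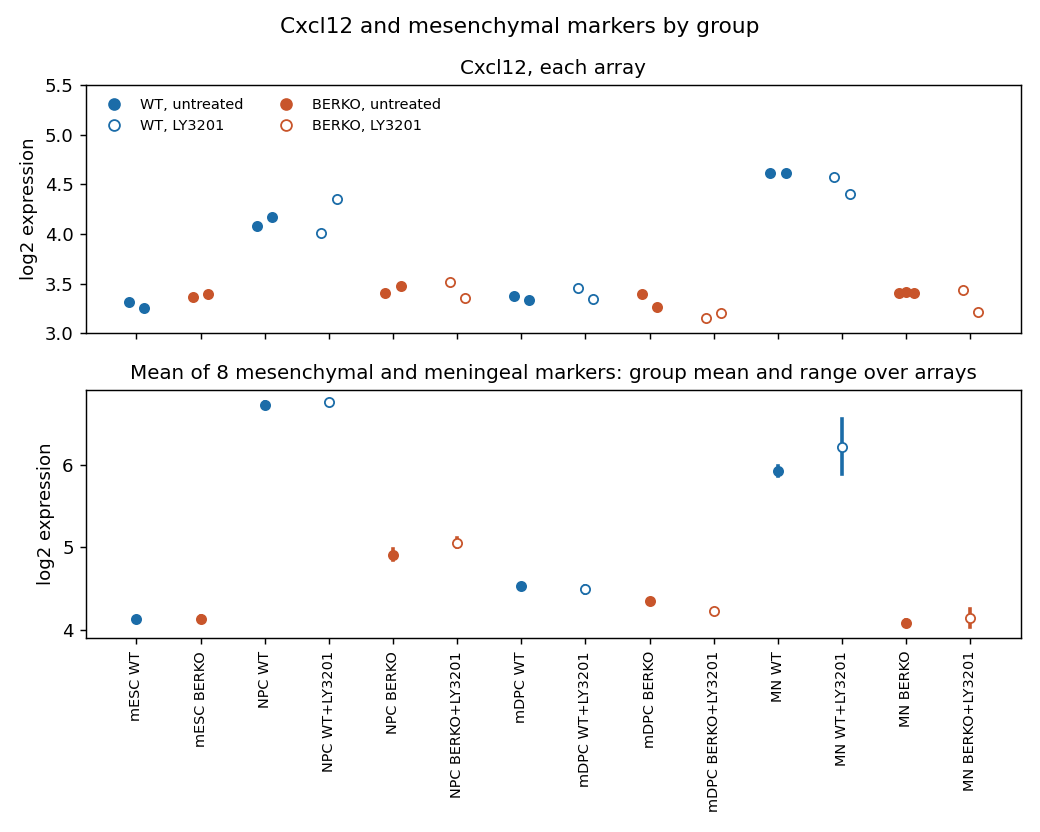
Cxcl12 in each array (top) and the mean of 8 mesenchymal and meningeal markers (bottom, group mean with the range over arrays as a line), both as log2 expression by group, WT blue and BERKO orange, LY3201 as open points. Both are highest in WT NPC and WT MN, where the untreated marker means are 6.74 and 5.93 against 4.91 and 4.08 in the groups labelled BERKO.

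Ackr3, the scavenging Cxcl12 receptor, stayed at 3.85 to 6.09 and below the 95th percentile of the negative controls in every array. At MN it read 5.30 and 5.20 in untreated WT and 5.79, 5.72 and 5.95 in BERKO, a difference of 0.57 ± 0.11 (limma adjusted p = 0.00115). With LY3201 it read 5.53 and 5.63 in WT and 6.09 and 5.86 in BERKO, a difference of 0.39 ± 0.13 (adjusted p = 0.0345). The LY3201 call was lost without either WT array (0.153 and 0.0829), without the first BERKO array (0.249) and when only the compared groups were fitted (0.144). At mESC, NPC and mDPC the genotypes overlapped in all 5 comparisons. At MN, then, Cxcr4 was lower in the arrays labelled BERKO, and Ackr3 was higher at signals not clear of the negative controls. Cxcl12 was lower there too, but the filter on low values had built that direction in.

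Counted over the 7 genes, the genotype comparisons gave 24 calls in 45 tests, 8 higher and 16 lower in arrays labelled BERKO, with the 4 untreated precursor values of Reln and Cxcr4 left out. Of the 16 lower calls, 4 were Reln and Cxcr4 in LY3201 precursors and 4 were Cxcl12, which the choice of the genes and the filter on low values fixed. The remaining 34 tests gave 16 calls, 8 higher and 8 lower. The counts below leave these values out too. In mESC 0 of 6 were called by limma and 2 had an unadjusted p under 0.05 (Dab1 and Cxcr4), where 4.15% of all 22433 genes tested were called. In untreated NPC 1 of 4 was called (Dab1, higher), against 15.5% of all genes. In untreated mDPC 3 of 4 were called (Vldlr higher, Lrp8 and Dab1 lower), against 13.7%. In untreated MN 4 of 6 were called (Lrp8 and Ackr3 higher, Dab1 and Cxcr4 lower), against 20.6%. With LY3201, 1 of 4 was called in NPC, 3 of 4 in mDPC and 4 of 6 in MN, the same genes as untreated, against 10.2%, 15.2% and 19.5%. Because the set was assembled around Reln and Cxcr4 with these results known, these counts describe these genes and are not a test of the set.

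**Figure D4:**
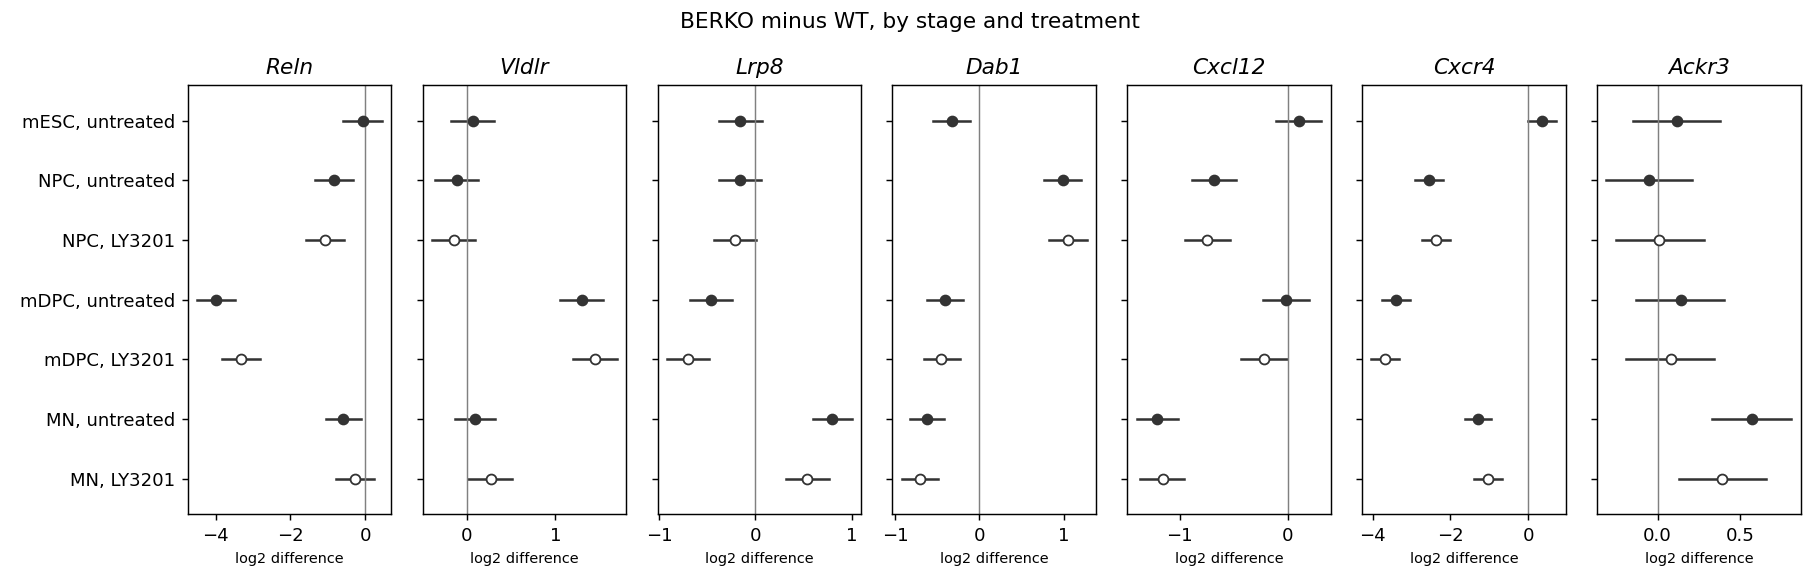
Log2 difference, BERKO minus WT, of each gene (columns) at each stage and treatment (rows), with 95% intervals from the model; filled points are untreated and open points LY3201, and each column has its own horizontal axis. Reln and Cxcr4 lie furthest below 0 at mDPC (-3.99 and -3.40 untreated), where Vldlr lies above 0 (1.30), and Lrp8 lies below 0 at mDPC and above 0 at MN.

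Between consecutive stages most of these genes changed, as did much of the transcriptome. From mESC to untreated NPC all 7 rose in WT, led by Cxcr4 at 6.49 ± 0.17 and Lrp8 at 3.37 ± 0.11, where 62.6% of all genes were called and 27.9% were called higher. In BERKO 6 of 7 rose at that step (63.1% of all genes called, 27.5% higher), with Cxcr4 at 3.56 ± 0.17 and Cxcl12 at 0.06 ± 0.10. Cxcl12 is counted in these step counts although its higher values in WT NPC and WT MN let it pass the filter. Reln and Cxcr4 are counted too, although they were chosen for precursor values lower in BERKO than in WT. That choice favoured high values in WT precursors and low values in BERKO precursors. The step counts are therefore descriptions and not a test of the set. From NPC to mDPC in WT, Reln rose by 5.72 ± 0.24 and Cxcr4 by 1.00 ± 0.17, while Lrp8, Cxcl12 and Ackr3 fell, 5 of 7 called against 30.1% of all genes. In BERKO, Reln rose by 2.57 ± 0.24 and Vldlr by 1.43 ± 0.12, and Lrp8, Dab1 and Ackr3 fell, again 5 of 7 against 35.1%. Reln therefore rose toward mDPC in both genotypes, and to a lower level in BERKO, the difference that chose the gene.

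From mDPC to MN, Reln fell in both genotypes, by 5.06 ± 0.24 on the log2 scale in WT and by 1.65 ± 0.22 in BERKO. The untreated mDPC values chose Reln and Cxcr4, so the steps of these 2 genes are described without p, though counted among the calls. In WT the step called 4 of 7 genes (41.7% of all genes), with Vldlr, Cxcl12 and Ackr3 higher. The Cxcl12 rise follows the filter, which this gene passed through its higher values in WT NPC and WT MN. The Vldlr call in WT, 0.45 ± 0.12, was lost without the second WT MN array, where the difference was 0.37. In BERKO the step called 6 of 7 (50.6% of all genes), with Cxcr4 rising by 2.23 ± 0.16, Lrp8 by 1.41 ± 0.10 and Ackr3 by 1.37 ± 0.11, and Vldlr and Dab1 falling. Cxcr4 in WT differed by 0.11 ± 0.17 at this step, having already reached 11.49 at mDPC.

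The same steps among LY3201 arrays gave 5 of 7 calls from NPC to mDPC in WT and 5 of 7 in BERKO (26.7% and 32.8% of all genes), and 4 of 7 and 6 of 7 from mDPC to MN (41.6% and 45.8%). Of the genes called in both treatments all moved the same way. Cxcr4, as a description, had a step of -0.54 from mDPC to MN in WT with LY3201. It is counted as a call, which was lost without the first mDPC array (-0.45) or the first MN array (-0.51). The LY3201 mDPC arrays may have been in view when Cxcr4 was chosen, so no p is given. Across the 10 step comparisons 53 of 70 tests were called, 32 higher and 21 lower, where 26.7% to 63.1% of all genes were called in each step. These counts include Cxcl12, whose steps in WT follow the filter on low values, and Reln and Cxcr4, which were chosen by precursor values. They describe these genes and are not a test of the set.

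Whether a step differed between genotypes was tested directly for genes and steps that do not contain the differences used for the choice. At the step from mESC to NPC, 1 of 4 genes was called (9.51% of all genes), with Dab1 rising more in BERKO by 1.32 ± 0.15 (adjusted p = 9.21e-06). Cxcr4 and Reln, as descriptions, had steps that differed by -2.93 and -0.77. From NPC to mDPC 2 of 4 were called (8.61% of all genes), with Vldlr at 1.41 ± 0.17 and Dab1 at -1.39 ± 0.15. From mDPC to MN 2 of 4 were called (12.3% of all genes), with Lrp8 at 1.26 ± 0.14 and Vldlr at -1.20 ± 0.16. The Cxcl12 differences over the 3 steps, -0.78, 0.66 and -1.19, follow the filter that let it in through WT NPC and WT MN and are left out of these counts. Ackr3 had no called difference at any of the 3 steps, the nearest being 0.43 ± 0.17 from mDPC to MN (adjusted p = 0.116). These step differences and the genotype differences above share the same arrays.

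LY3201 left no call among the 7 genes. Of 42 tests, 6 comparisons by 7 genes, 0 passed by limma and 7 had an unadjusted p under 0.05. All differences lay between -0.44 and 0.67, and all 95% intervals between -0.80 and 1.18. Called shares over all genes were 0.00446% in WT NPC, 0.0624% in WT mDPC, 1.79% in WT MN, 0% in BERKO NPC, 0.111% in BERKO mDPC and 0.334% in BERKO MN. Groups overlapped in 29 of the 42 pairs and were separate in 13. Groups of so few arrays often separate by chance, and no such count over all genes is given here. The overlap count therefore does not set these 7 genes apart from other genes. The intervals still allow changes of more than 1.5-fold for several genes, so similar levels with and without LY3201 are not shown.

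The value furthest from 0 was Reln in BERKO mDPC, which read 7.50 and 8.05 untreated and 8.84 and 8.05 with LY3201, a difference of 0.67 ± 0.24 (limma adjusted p = 0.427). In WT mDPC Reln read 11.96 and 11.57 untreated and 11.42 and 12.13 with LY3201, a difference of 0.01 ± 0.24. The difference of the LY3201 effect between genotypes contains the arrays that chose the gene and is given as a description, 0.66 ± 0.34. Cxcr4 in WT MN read 11.68 and 11.50 untreated and 11.11 and 11.18 with LY3201, a difference of -0.44 ± 0.17 (adjusted p = 0.222). Vldlr in WT MN differed by -0.42 ± 0.12 (adjusted p = 0.0778) and Lrp8 in BERKO MN by -0.30 ± 0.10 (adjusted p = 0.198). For the LY3201 effect, differences between genotypes were called for 0 of 5 genes in NPC, 0 of 5 in mDPC and 0 of 7 in MN, where 0.499%, 0% and 0.584% of all genes were called, and none of these had an unadjusted p under 0.05.

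**Figure D5:**
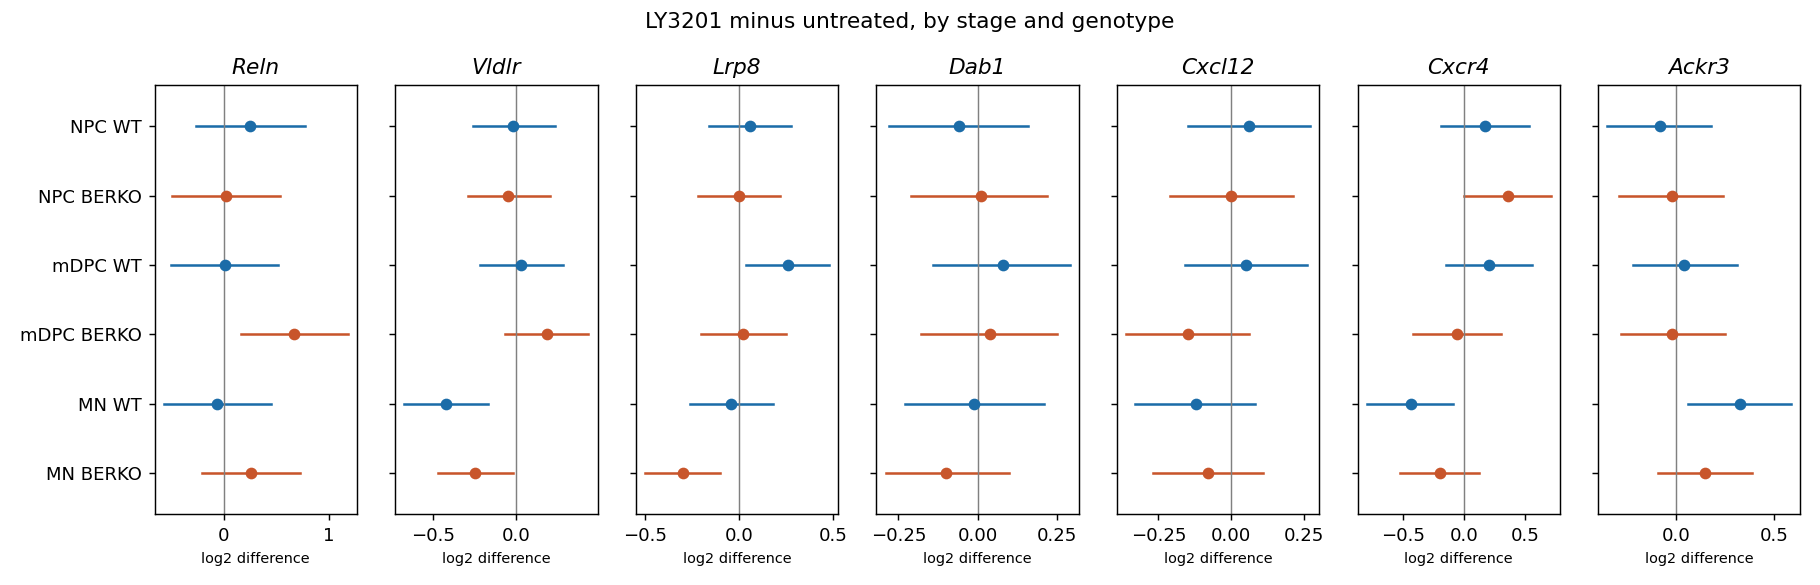
Log2 difference, LY3201 minus untreated, of each gene (columns) in each stage and genotype (rows, WT blue and BERKO orange), with 95% intervals from the model; each column has its own horizontal axis. The differences lie between -0.44 and 0.67, with Reln in BERKO mDPC furthest above 0.

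Of 26 other Reelin pathway genes, 25 were on the array and tested. In untreated NPC 5 were higher and 1 lower in BERKO, against 10.4% higher and 5.07% lower over all genes tested. In mDPC 3 were higher and 1 lower (8.39% and 5.26% over all genes), and in MN 2 higher and 3 lower (13.3% and 7.26%). The medians over the list were 0.03, 0.05 and -0.02, beside medians over all genes of 0.028, 0.023 and 0.01. Dcx, the microtubule protein of migrating neurons, was lower in untreated BERKO at NPC, mDPC and MN by -1.28 ± 0.28, -1.83 ± 0.28 and -0.79 ± 0.26 (limma adjusted p = 0.0039, 0.000123 and 0.0363). Src, a Src-family kinase like those that phosphorylate Dab1, was higher at the same stages by 0.68 ± 0.08, 0.36 ± 0.08 and 0.24 ± 0.08 (adjusted p = 1.09e-05, 0.00546 and 0.0341). In NPC Limk1, the cofilin kinase downstream of Dab1, was higher by 0.73 ± 0.08 (adjusted p = 2.43e-06), and Rapgef1, an exchange factor for Rap1, by 0.60 ± 0.07 (1.07e-05). Limk1 read at most 7.12 in any array, below the negative-control 95th percentile of every NPC array.

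Other genes of that list differed at a single stage. At mDPC Clu, an extracellular chaperone that also binds Vldlr and Lrp8, was higher in BERKO by 0.93 ± 0.18 (limma adjusted p = 0.00113). At MN Thbs1, a matrix protein that likewise binds these receptors, was lower by -3.58 ± 0.21, at 6.57 against 10.14 (adjusted p = 2.47e-10). Cdk5r1, the neuronal activator of Cdk5, was lower at MN by -1.38 ± 0.35 (adjusted p = 0.00802), alongside the 5 neuron markers lower in the same arrays, whose part in it was not tested. Cdk5r1 read at most 7.63 in any array, so its BERKO MN level was not clear of the brightest negative controls.

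Of 22 other Cxcl12 pathway genes, 17 were on the array as single genes and 15 were tested. In untreated NPC 4 were higher and 3 lower in BERKO, against 10.4% and 5.07% of all genes. In mDPC 1 was higher and 2 lower (8.39% and 5.26%), and in MN 4 higher and 3 lower (13.3% and 7.26%), with list medians of 0.06, -0.09 and 0.12. In mESC 1 was lower, against 2.51% over all genes, and none higher (1.65%). Grk3, a kinase that desensitises G protein coupled receptors including Cxcr4, was lower in NPC by -1.23 ± 0.13 and in mDPC by -1.24 ± 0.13 (limma adjusted p = 2.32e-06 and 1.43e-06). Mif, a cytokine that also acts on Cxcr4, was higher in NPC by 1.59 ± 0.21 (adjusted p = 1.98e-05). At MN Cxcl14, a chemokine reported to bind Cxcr4, was higher by 1.92 ± 0.15 (adjusted p = 2.02e-08), and Arrb1, the beta-arrestin that couples to Ackr3, by 1.11 ± 0.07 (1.19e-09). Adm, whose peptide is scavenged by Ackr3, was higher at mDPC by 1.16 ± 0.31 and lower at MN by -1.33 ± 0.29 (adjusted p = 0.0168 and 0.00206). Cxcl14 and Adm read at most 7.72 and 7.98 in any array, so the lower group in these differences was not clear of the brightest negative controls. Dpp4, the peptidase that trims Cxcl12, was lower in mESC by -0.56 ± 0.08 (adjusted p = 0.000378).

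For LY3201, 1 gene of the 2 lists was called in 6 comparisons: Elmo1, an adaptor of Rac activation, in BERKO mDPC by 0.48 (limma adjusted p = 0.0461). In that comparison 0.111% of all genes were called. When only the compared groups were fitted, 0 genes were called there, so the Elmo1 call was lost.

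By the Pearson correlation of 14 group means, the genes most like Reln were Spryd7 (r = 0.976), Tmprss7 (0.962), Metap1d (0.956), Tsc22d1 (0.956) and Zfp385b (0.953). Those most like Cxcr4 were Phldb2 (0.975), Dipk2a (0.973), Pfkfb3 (0.970), Astn2 (0.963) and Ric3 (0.962). Astn2 encodes an astrotactin, a membrane protein of neurons migrating along glia. Tmprss7 and Zfp385b had group means between 3.28 and 4.73, near the negative-control median throughout, and Ric3 spanned less than 1 log2 unit. For Cxcl12, Col1a1 ranked first (0.977), named here after its value was seen. The groups share genotype, stage and normalization, the largest differences dominate these coefficients, and they are descriptions.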

How the data were processed

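The deposited log2 values came, per the labels, from 150 ng of total RNA per array, processed by SST-RMA (Expression Console 1.4, Affymetrix). The submitters' processing notes also name RMA and the Transcriptome Analysis Console, without versions. The genome build behind the clusters is not given in the sources used here. The table held 65956 transcript clusters and 6732 controls, 5222 of them negative controls. A platform annotation paired 31258 clusters with 1 gene, 1492 with several and 33206 with none. Of these, 654 clusters carried older names of a single gene (for Ackr3, Cxcr7), resolved through RefSeq (GRCm38.p6), and 1152 symbols were updated. The cluster with the highest mean was used for 441 genes with several clusters. Each of the 7 genes had 1.

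Tests covered genes above the array median of all clusters (3.52 to 3.74) in at least 2 arrays, which were 22433 genes with all 7 described here. limma 3.58.1 in R 4.3.3 fitted 1 mean per group to 29 arrays in 14 groups (15 residual degrees of freedom, 3.3 prior). Its 29 contrasts were each adjusted by Benjamini-Hochberg over all genes tested, at a threshold of 0.05, 2-sided. Groups of 2 or 3 arrays limit the precision. The fit was checked on simulated data, but the settings and outcome of that check are not given here. The series text calls the replicates biological, yet the 2 mESC BERKO arrays share a title number, as do the 2 WT NPC arrays with LY3201, and such pairs may be 1 culture. The labels give no scan or hybridisation batch. The 7 genes, the other lists and the tests were chosen with earlier results of these data known. The untreated steps of Reln and Cxcr4 contain the arrays whose values chose these genes, and the LY3201 steps contain precursor arrays that may have been in view. All these steps were counted as tests but are printed without p. The genotype differences of Reln and Cxcr4 in LY3201 precursors and those of Cxcl12 were tested as planned but are printed without p, since the choice of the genes or the filter could fix their direction. Named were all 7 genes, up to 4 called members with the largest change per other list and comparison, and the 5 genes most like Reln and Cxcr4, leaving out predicted genes and small RNAs. Alternatives were quantile normalization, no filter or one at the 75th percentile, a robust and trended prior, only the compared groups, same-numbered arrays averaged, clusters averaged per gene, and each array left out. Promoters came from RefSeq, where both genes matched. Figures were drawn with matplotlib 3.10.9.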

Additional observations from a re-analysis of the deposited data

Results flagged for a closer look

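Steps between stages that differed between genotypes by a test of the difference itself stood out for Vldlr, Lrp8 and Dab1. Vldlr rose more toward mDPC in arrays labelled BERKO, by 1.41 on the log2 scale, and its step from mDPC to MN was lower there, with a difference of -1.20. Lrp8 had a step from mDPC to MN that was higher in BERKO by 1.26. Dab1 differed by 1.32 from mESC to NPC and by -1.39 from NPC to mDPC. Cxcl12 also differed, by -0.78, 0.66 and -1.19 over the 3 steps, but it was tested only through the WT NPC and WT MN arrays where it was higher, so these differences follow from the filter, and its signals never exceeded the negative-control 95th percentile.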

How the results depend on the processing

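Of 2407 values of the 7 genes recomputed under the alternatives, 2354 kept their side of the threshold or, without a test, stayed within the spread between replicates, 23 lost their call, 10 gained one and 20 without a test moved by more than that spread. No called value changed sign, while 70 values without a call did, the reported sizes of these being at most 0.18. The count of called differences of effects was 8 as reported and 5 with the filter at the 75th percentile, which drops Cxcl12. The count of LY3201 calls was 0 as reported and 1 under quantile normalization (Vldlr in WT MN, -0.49, limma adjusted p = 0.043). With each array left out it ranged from 0 to 1, the call being Lrp8 in BERKO MN (-0.39, adjusted p = 0.0458) without the second untreated BERKO MN array. Among genotype differences, Reln at untreated MN became a call under quantile normalization (-0.64, adjusted p = 0.0481). So did Vldlr at MN with LY3201 (0.34, adjusted p = 0.0408).

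Counts over all genes moved by more than 1.5 times: the genotype counts were 932 in mESC, 3479 in NPC, 3063 in mDPC and 4614 in MN as reported and fell as low as 156, 1920, 1850 and 2295. With LY3201 they were 2292, 3403 and 4368 and fell as low as 1284, 1726 and 1171. Step differences went from 2133, 1932 and 2753 to 1334, 1213 and 1630. For LY3201 the reported 1, 14 and 402 (WT) and 0, 25 and 75 (BERKO) genes reached 8, 34, 651, 6, 33 and 314 at most and 0 at least. The difference of the LY3201 effect went from 112, 0 and 131 to at most 373, 8 and 342. No paired analysis was possible because the labels give no replicate numbers shared between groups. Low signals of Cxcl12 and Ackr3 limit what their differences show, and differences near 0.5 rest on 2 arrays per group.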
